A study of Mus musculus with 5 samples.

Results

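The genes described here encode interleukin-15, the chains of the cytokine receptors built around the common gamma chain, and the 2 kinases bound to those chains, in NKT cells sorted from the thymus of IL15ko and wild-type mice. The 10 genes were chosen by name: the ligand Il15, the receptor chains Il15ra, Il2rb, Il2rg, Il2ra, Il7r, Il4ra and Il21r, and the kinases Jak1 and Jak3. They are 10 of the 20022 genes that a probe of the array could be tied to, and 13 of its 55681 probes report them. The IL15ko samples (n = 2) had the genotype IL15-/- and the wild-type samples (n = 3) carried no labelled mutation; both were on the C57BL/6 background. Each sample was made from the thymi of 10 mice, pooled, enriched for T cells on magnetic beads and sorted for CD3e and binding of the CD1d tetramer, so a value is an average over 10 animals and over all maturation stages of the sorted cells. The labels used here give neither age nor sex, and they do not say that the samples of a group were separate pools, so p-values speak of the spread among these samples alone, which may be technical. In such bulk samples, fewer cells of a type and less RNA per cell cannot be told apart.

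Cytokines of this family act through receptors that share the common gamma chain, encoded by Il2rg, and pair it with a chain that sets the cytokine: IL-7 receptor alpha, IL-4 receptor alpha, the IL-21 receptor, or the beta chain shared by the receptors for IL-2 and IL-15. JAK1 sits on the pairing chain and JAK3 on the gamma chain, and together they phosphorylate STAT factors. IL-15 is made by accessory cells that present it on IL-15 receptor alpha, and in mice it is known for its part in the late maturation and survival of NKT cells in the thymus.

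RNA of each sample was labelled with Cy3 and read on a 1-colour Agilent array. The first field of the barcode was the same for all 5 arrays, while the second field took 2 values. The number of slides, and how they fell over the groups, was not settled here. Values are given as relative signal, the processed intensity as a percentage of the array's own 75th percentile over probes well above background on all arrays, so levels of different probes cannot be set against each other. The share of probes well above background was 45.2% and 33.9% on the IL15ko arrays and 44.6% to 49.6% on the wild-type arrays, IL15ko replicate 2 being the dimmest. Wild-type replicates 1 and 2 were the closest pair, with a robust SD of their log2 differences of 0.17, against 0.38 for the IL15ko pair and 0.34 and 0.38 for the other wild-type pairs. All 13 T and NKT cell markers on the list, Cd3e, Zbtb16 and the receptor gene Il2rb among them, were well above background on all 5 arrays. In IL15ko cells 3 of them were called higher (Zbtb16, Slamf6 and Cd5) and 0 lower (limma, adjusted p under 0.05). The share over all genes was 3.75% higher and 3.58% lower. Cd3e, the CD3 chain used in the sort, had relative signals of 1711 and 1922 in IL15ko and 1809, 1958 and 1877 in wild-type NKT cells. Cd3g had 1158 and 511 in IL15ko and 1304, 1401 and 1223 in wild-type cells (limma adjusted p = 0.235).

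Of the 10 genes, 9 could be tested, and Il4ra and Il21r fell in IL15ko NKT cells while none rose (limma, adjusted p under 0.05). The 2 lower calls stand against 3.58% of all 12000 genes tested that were called lower, and the 0 higher calls against 3.75% called higher (7.32% in either direction). At an unadjusted p under 0.05, 3 of the 9 genes were lower and 1 was higher. Over all 12000 genes tested, 3296 had such a p in either direction. The arrays of the groups did not overlap for 5 of the 9 genes, a share to be read against 47.2% of all genes. The median log2 difference, IL15ko minus wild-type, was -0.08 over the 9 genes and 0.01 over all genes tested. With 2 arrays against 3, an exact permutation test on 1 value cannot go below p = 0.1.

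**Figure D1:**
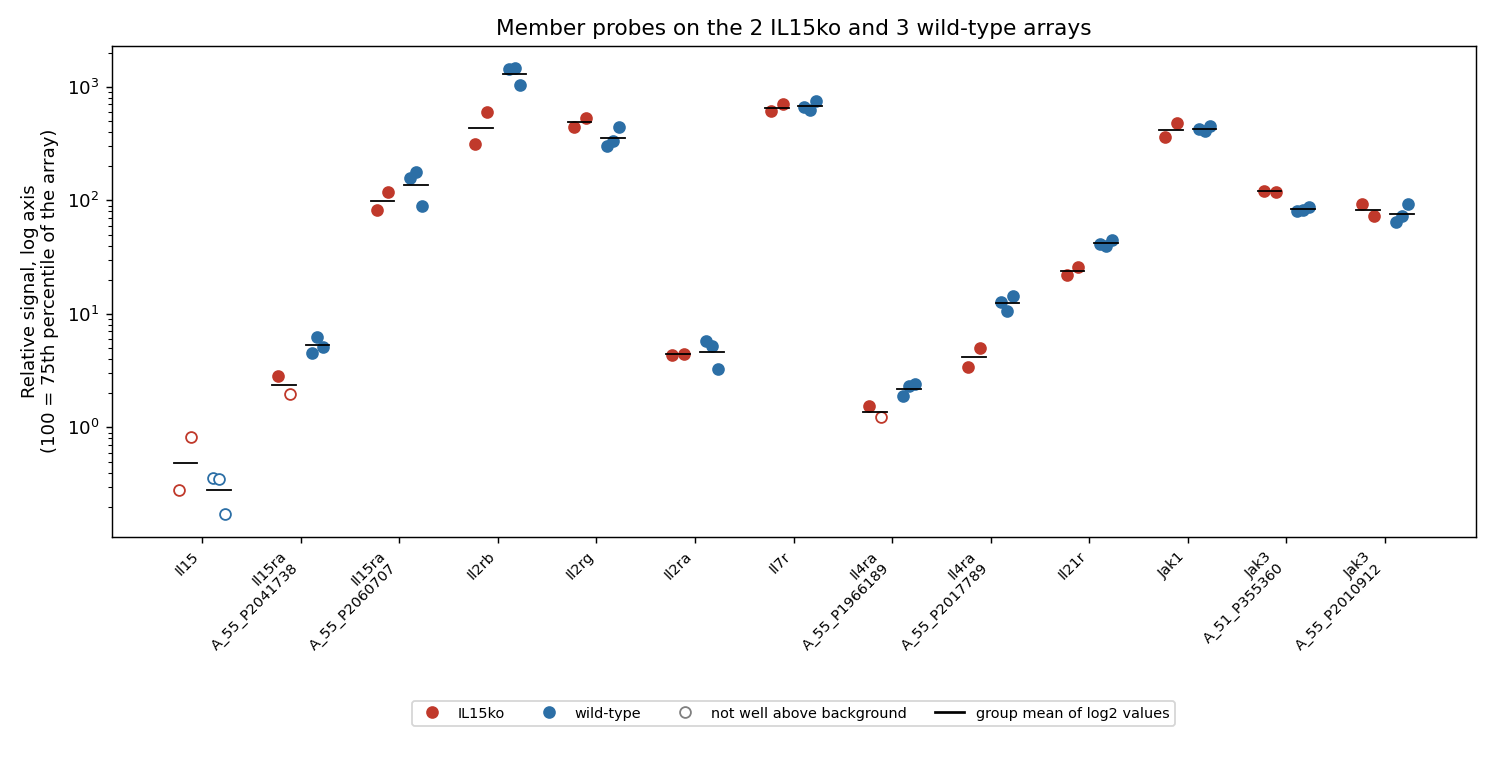
Relative signal (log axis, 100 being the array's 75th percentile) of each probe on the 2 IL15ko arrays (red, left) and the 3 wild-type arrays (blue, right), with the group mean of the log2 values as a bar and open circles where the probe was not well above background. Il2rb, the brighter Il4ra probe and Il21r lie lower on both IL15ko arrays than on any wild-type array, the brighter Jak3 probe lies higher, and Il15 is open on all 5.

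Il15, the ligand that the mutation removes, is a gene on chromosome 8 and was read by a single probe (A_52_P15461, NM_008357). That probe gave relative signals of 0.281 and 0.827 in IL15ko cells and 0.361, 0.354 and 0.172 in wild-type cells. The signal never rose well above background, so Il15 was not tested, and the probe gives no check of the genotype labels.

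Il15ra encodes the high-affinity alpha chain that binds and presents IL-15, on chromosome 2. Its brighter probe (A_55_P2060707, NM_133836) gave 83.0 and 119 in IL15ko cells against 158, 176 and 89.8 in wild-type cells. Wild-type replicate 3 lay between the IL15ko arrays, so the groups overlapped, and the log2 difference of -0.45 ± 0.35 (SE) did not pass the test (limma adjusted p = 0.439). The dimmer probe (A_55_P2041738, NM_008358) gave 2.84 and 1.98 in IL15ko cells against 4.55, 6.32 and 5.13 in wild-type cells. Here both IL15ko arrays were below all wild-type arrays, but IL15ko replicate 2 was not well above background. Its log2 difference was -1.16 ± 0.25 (limma, fit over 26487 probes, adjusted p = 0.0825).

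Il2rb encodes the beta chain, CD122, through which cells respond to IL-2 and to presented IL-15; it lies on chromosome 15. Its probe (A_51_P286496, NM_008368) gave 316 and 605 in IL15ko NKT cells against 1437, 1457 and 1028 in wild-type NKT cells. Both IL15ko values were below every wild-type value, yet they stood far from each other, and wild-type replicate 3 was lower than the other wild-type arrays. On the log2 scale the group means were 2.13 ± 0.66 in IL15ko and 3.69 ± 0.28 in wild-type cells (SD, n = 2 and 3). The 2.95-fold lower signal (95% interval 1.66 to 5.26) missed the threshold (limma adjusted p = 0.0542), while 22% of all genes had groups that lay apart in this direction. The adjusted p ranged from 0.019 to 0.201 over 18 other settings, and 5 of them, all with every array kept, gave a call. With 1 array left out, the log2 difference was -2.03 to -1.09.

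The NK and innate lymphoid markers moved in the same direction as Il2rb: 5 of the 7 tested were lower in IL15ko cells, and 1 was higher. For this and the next counts of markers, the share over all genes was 3.58% lower and 3.75% higher. Sums over a list add signals of different probes, so the brightest probes set them. The NK list summed to 542 to 675 in IL15ko and 2240 to 2424 in wild-type cells. Ncr1, a defining NK receptor, stayed near background on all arrays, and Eomes passed it on a single wild-type array. Double-positive and immature thymocyte markers summed to 492 to 538 in IL15ko and 211 to 251 in wild-type cells, with 3 of the 5 tested higher, while Rag1, Rag2, Ptcra, Cd8a and Cd8b1 were never well above background. Regulatory T cell markers, whose cells carry CD25, summed to 227 to 244 in IL15ko and 390 to 412 in wild-type cells, with 1 of 4 tested lower. Tnfrsf18 was that gene and made the gap, with 164 and 163 in IL15ko against 321, 321 and 350 in wild-type cells, while Foxp3, which defines these cells, had 3.70 and 2.61 in IL15ko against 3.87, 4.03 and 3.54 in wild-type cells (limma adjusted p = 0.374). Myeloid and dendritic markers summed to 3488 to 5144 in IL15ko and 3469 to 5394 in wild-type cells, a sum made almost wholly of Siglech and Itgam, with 1 of 5 higher (Cd74) and Itgax, Lyz2, Flt3, Adgre1 and Xcr1 never well above background. The part of these cell types in the receptor values was not tested.

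Il2rg encodes the common gamma chain itself, on the X chromosome. Its probe (A_66_P113749, NM_013563) gave 445 and 535 in IL15ko cells against 301, 336 and 442 in wild-type cells. The groups only just stayed apart, since wild-type replicate 3 nearly reached IL15ko replicate 1, and 25.2% of all genes lay apart with IL15ko higher. The log2 difference of 0.46 ± 0.21 did not pass the test (limma adjusted p = 0.233).

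Il2ra encodes CD25, the alpha chain of the high-affinity IL-2 receptor, on chromosome 2. Its probe (A_55_P1980796, NM_008367) gave 4.36 and 4.43 in IL15ko cells against 5.79, 5.26 and 3.29 in wild-type cells. The IL15ko values fell inside the wild-type range, with a log2 difference of -0.08 ± 0.27 (limma adjusted p = 0.863) whose sign turned under 5 of 18 other settings.

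Il7r encodes the alpha chain for IL-7, a survival cytokine of T cells, and lies on chromosome 15 like Il2rb. Its probe (A_51_P196695, NM_008372) gave 609 and 699 in IL15ko cells against 666, 626 and 757 in wild-type cells. The groups overlapped throughout, and the log2 difference of -0.06 ± 0.15 had a 95% interval of -0.44 to 0.32 (limma adjusted p = 0.814). Changes of the size fitted for Il4ra, Il2rb and Il21r lie outside that interval.

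Il4ra, the chain that binds IL-4 and also serves the receptor for IL-13, had the largest log2 difference among the 9 genes as processed here, close to that of Il2rb. Its brighter probe (A_55_P2017789, NM_001008700) gave 3.41 and 5.02 in IL15ko NKT cells against 12.7, 10.7 and 14.3 in wild-type NKT cells. Every wild-type value was more than that of either IL15ko array, and the probe was well above background on all 5. The log2 means were -4.60 ± 0.40 in IL15ko and -3.00 ± 0.21 in wild-type cells (SD, n = 2 and 3), a 3.02-fold lower signal in IL15ko (95% interval 2.02 to 4.51, limma adjusted p = 0.0233). The call was lost when any of the 5 arrays was left out, with adjusted p of 0.0504 to 0.104 and log2 differences of -1.87 to -1.31, and normexp background correction gave a log2 difference of -0.58. The dimmer probe (A_55_P1966189) gave 1.54 and 1.23 in IL15ko cells against 1.89, 2.33 and 2.40 in wild-type cells. It too was lower on both IL15ko arrays, by 0.67 on the log2 scale, but it did not pass (limma adjusted p = 0.147) and a single IL15ko array had it well above background.

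Il21r encodes the receptor for IL-21, and the annotation places it directly beside Il4ra on chromosome 7. Its probe (A_55_P2071447, NM_021887) gave 21.9 and 25.9 in IL15ko NKT cells against 41.4, 39.4 and 44.8 in wild-type NKT cells. The arrays within each group lay close together and the groups were well apart. The log2 difference was -0.81 ± 0.14, a 1.75-fold lower signal in IL15ko (95% interval 1.36 to 2.26, limma adjusted p = 0.0375). Leaving out any of the 5 arrays ended this call as well, with adjusted p of 0.0634 to 0.161 and log2 differences of -0.93 to -0.69. In the fit over all 26487 probes, Il21r did not pass (adjusted p = 0.0762) and the brighter Il4ra probe did (adjusted p = 0.0463), the only one of 12 tested probes to be called, where 1.53% of all probes were called lower and 1.2% higher, 2.73% in all. The groups lay apart on 7 of the 12 probes, 5 with IL15ko lower and 2 with IL15ko higher, while 42.2% of all probes lay apart, 23% with IL15ko lower and 19.2% with IL15ko higher.

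The genes on either side of this pair gave no call. Nsmce1, before Il4ra, had 101 and 94.9 in IL15ko cells against 110, 102 and 105 in wild-type cells, a log2 difference of -0.11 (limma adjusted p = 0.594). Gtf3c1, after Il21r, had 28.5 and 36.5 in IL15ko cells against 33.3, 32.0 and 29.9 in wild-type cells, a log2 difference of 0.02 (limma adjusted p = 0.932). The groups overlapped for Gtf3c1 and nearly touched for Nsmce1, and their differences from Il4ra and Il21r were not tested.

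The 250 bases before the annotated start of the neighbours Il4ra and Il21r are shown because both genes were called lower, and those of Il7r because its signal overlapped between the groups and its window holds both motifs searched. Sequences are from RefSeq on build GRCm38.p6, 5′ to 3′ on the strand of the gene, and capitals mark motif matches. The motifs were TTCNNNGAA, the palindromic core bound by STAT factors, and GTGTGA or its complement TCACAC, the core bound by T-box factors; they do not overlap each other.
Il4ra, chr7:125552021-125552270, plus strand: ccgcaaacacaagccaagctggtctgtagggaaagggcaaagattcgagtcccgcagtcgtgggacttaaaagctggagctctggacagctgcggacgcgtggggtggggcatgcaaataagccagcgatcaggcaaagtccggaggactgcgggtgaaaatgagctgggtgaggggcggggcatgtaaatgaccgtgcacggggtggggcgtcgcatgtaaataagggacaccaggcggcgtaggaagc
Il21r, chr7:125603179-125603428, plus strand: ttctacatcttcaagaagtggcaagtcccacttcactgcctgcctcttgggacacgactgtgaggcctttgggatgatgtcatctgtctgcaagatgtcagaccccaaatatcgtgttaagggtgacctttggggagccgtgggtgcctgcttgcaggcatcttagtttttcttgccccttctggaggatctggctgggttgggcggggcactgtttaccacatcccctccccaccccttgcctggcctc
Il7r, chr15:9529877-9530126, minus strand: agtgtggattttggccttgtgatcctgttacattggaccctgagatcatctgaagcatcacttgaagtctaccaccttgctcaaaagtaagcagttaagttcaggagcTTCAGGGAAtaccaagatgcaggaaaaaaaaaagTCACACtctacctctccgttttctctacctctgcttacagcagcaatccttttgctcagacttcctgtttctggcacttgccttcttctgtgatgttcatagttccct
In the Il7r window the STAT core starts 142 bases and the T-box core 108 bases before the gene's start. Neither motif occurs in the Il4ra or Il21r window, which says only that these letters are not in those 250 bases. Of 32851 promoter windows of this length, 7.02% hold TTCNNNGAA and 12.3% hold the T-box core on either strand. Windows were found for 8 of the 10 genes, with 9 entries, and not for Il15 and Il2rb. Il7r was the only gene with either motif. The windows of Il2ra, Il15ra, Il2rg, Jak1 and Jak3, none of them called, held neither.

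Jak1, the kinase bound to the beta, IL-4, IL-7 and IL-21 receptor chains, lies on chromosome 4. Its probe (A_52_P106463, NM_146145) gave 358 and 477 in IL15ko cells against 426, 410 and 447 in wild-type cells. The IL15ko arrays lay on both sides of the wild-type range, with a log2 difference of -0.05 ± 0.17 (limma adjusted p = 0.866).

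Jak3, the kinase bound to the common gamma chain, lies on chromosome 8 and was read by 2 bright probes. The brighter (A_51_P355360, NM_010589) gave 122 and 119 in IL15ko cells against 80.3, 82.5 and 86.6 in wild-type cells. Both IL15ko arrays were above all wild-type arrays and the arrays within a group agreed closely. The 1.45-fold higher signal (95% interval 1.17 to 1.79) did not pass the test (limma adjusted p = 0.0626), and 2 of 18 other settings called it. The other probe (A_55_P2010912, NM_001190830) gave 92.8 and 72.7 in IL15ko cells against 64.8, 72.4 and 93.4 in wild-type cells. On this probe the groups overlapped, with a log2 difference of 0.11 (limma adjusted p = 0.796).

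**Figure D2:**
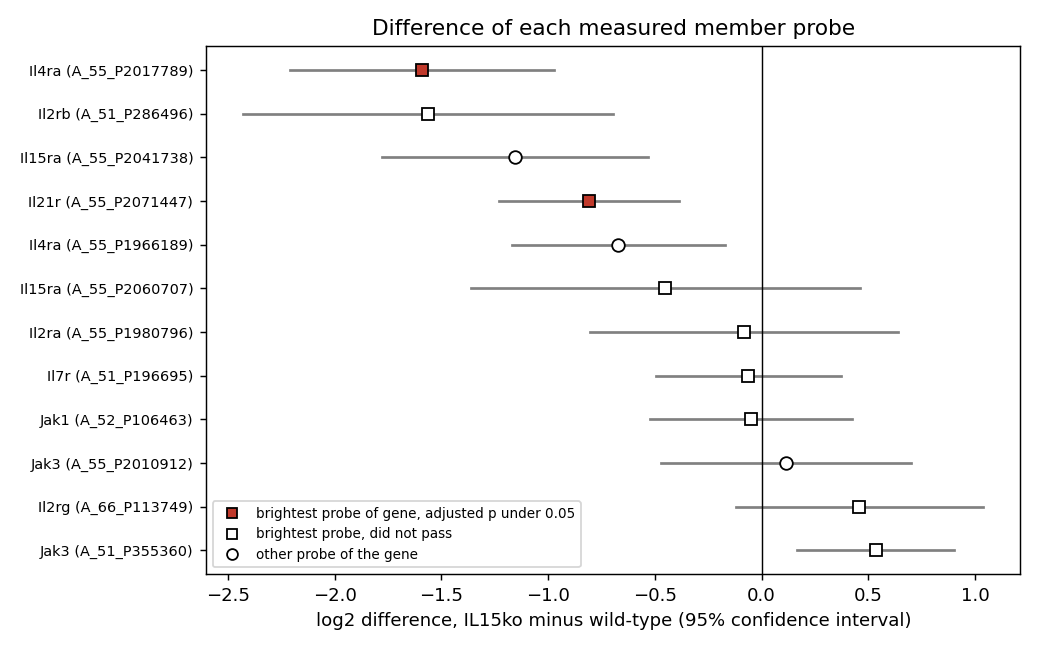
Log2 difference, IL15ko minus wild-type, of the 12 tested probes with the 95% interval of the probe-level fit; squares are each gene's brightest probe, circles its other probe, and filled squares passed the gene-level test. Il4ra (-1.59) and Il21r (-0.81) are filled, Il2rb (-1.56) is as low as Il4ra but has a wider interval, and Jak3 (0.54) and Il2rg (0.46) lie to the right of 0.

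For the 3 genes with 2 probes, the difference between their probes' log2 differences was tested after the values had been seen, in a limma fit over the 2997 genes with more than 1 probe. It was -0.92 ± 0.33 for Il4ra (adjusted p = 0.329), 0.70 ± 0.44 for Il15ra (adjusted p = 0.459) and 0.42 ± 0.20 for Jak3 (adjusted p = 0.372), the brighter probe minus the dimmer. No gene of the 2997 was called in that fit, and 433 had an unadjusted p under 0.05.

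Ratios within an array do not depend on its scaling, and their change shows how unequally pairs of chains changed. The log2 ratio of Il2rb to Il2rg was -0.49 and 0.18 on the IL15ko arrays against 2.25, 2.12 and 1.22 on the wild-type arrays, a change of -2.02. The ratio of Il4ra to Il2rg changed by -2.05, that of Il21r to Il2rg by -1.27 and that of Il7r to Il2rg by -0.52. Each of these ratios was lower on both IL15ko arrays than on every wild-type array (exact permutation p = 0.1, two-sided, the smallest possible). They share Il2rg, whose own log2 difference was 0.46 without passing, so they are not independent. Il7r itself differed by -0.06, so most of the change in its ratio came from Il2rg. The share of other gene pairs whose ratios lay apart was not computed. The Il15ra to Il2rg ratio overlapped between the groups (exact permutation p = 0.3), as did that of Il2ra to Il2rg (exact permutation p = 0.4). Among the kinases, Jak3 over Jak1 changed by 0.59 in log2 ratio and was higher on both IL15ko arrays (exact permutation p = 0.1).

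**Figure D3:**
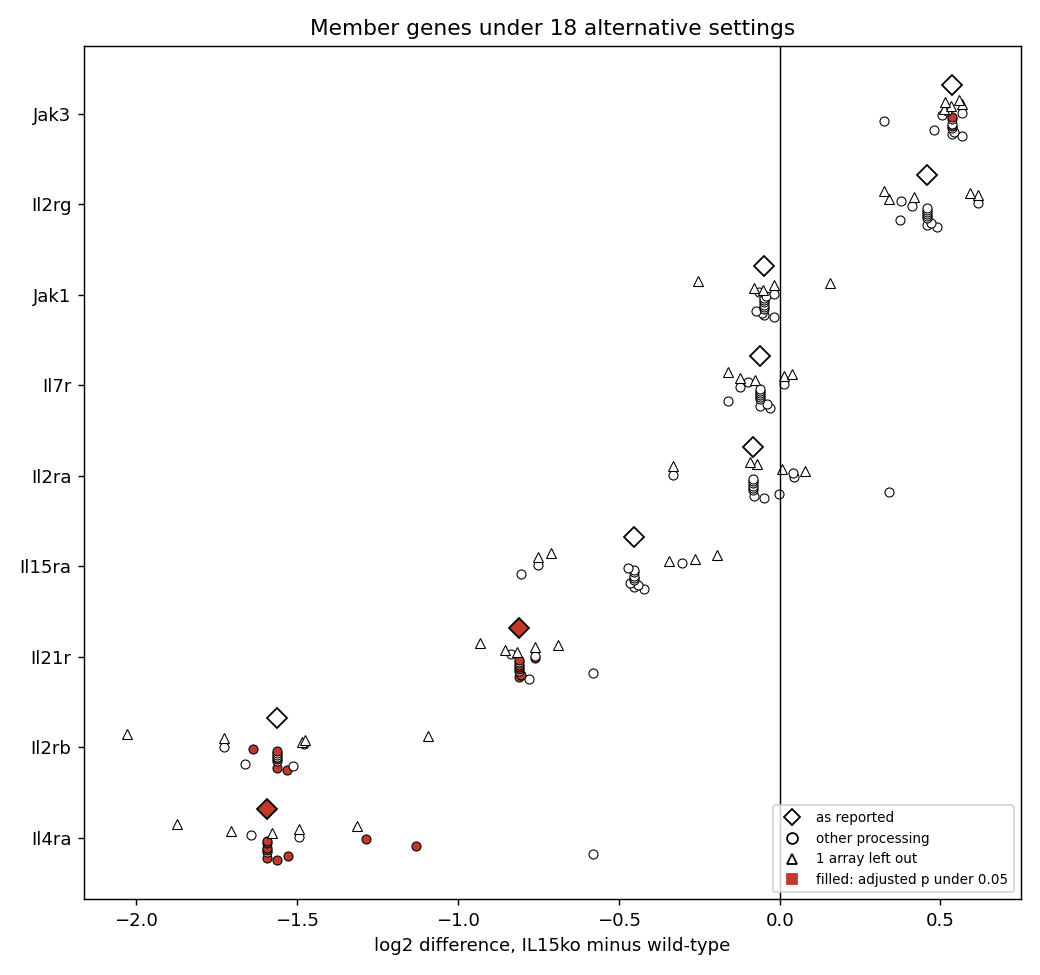
Log2 difference, IL15ko minus wild-type, of the 9 tested genes as reported (diamonds), under other processing (circles) and with 1 array left out (triangles); filled symbols had an adjusted p under 0.05. Il4ra, Il21r, Il2rb and Il15ra stay left of 0 and Jak3 and Il2rg right of 0 at all 18 settings, while no triangle is filled.

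Of 92 other genes of the pathway and of neighbouring receptor families, 81 could be tested, and in IL15ko cells 8 rose and 11 fell, where 3.75% of all genes tested were called higher and 3.58% lower, with a median log2 difference of -0.14. Without wild-type replicate 1, 0 of them were called in either direction, and leaving out another array left 4 to 9 lower and 2 to 4 higher. Among the cytokines of the family and those sharing its chains, 2 of 4 tested genes rose and none fell (3.75% and 3.58% over all genes). Il13, a ligand of a receptor containing IL-4 receptor alpha, gave 29.9 and 26.1 in IL15ko cells against 12.0, 14.9 and 9.59 in wild-type cells, 2.33-fold higher (limma adjusted p = 0.0381). Il21, the ligand of the IL-21 receptor, gave 7.51 and 5.09 in IL15ko cells against 2.63, 3.30 and 2.48 in wild-type cells, 2.22-fold higher (limma adjusted p = 0.0489). Both ligands were thus higher on both IL15ko arrays, whereas Il4ra and Il21r were lower there. Il4, the ligand of IL-4 receptor alpha, gave 230 and 198 in IL15ko cells against 150, 143 and 115 in wild-type cells and did not pass (limma adjusted p = 0.0868). Il2 was not well above background on either IL15ko array and was so on 2 of 3 wild-type arrays (limma adjusted p = 0.0726), and Il7, Il9 and Tslp were not so on any array. The calls of Il13 and Il21 were lost when any array was left out, with adjusted p of 0.0504 to 0.145 for Il13 and 0.0848 to 0.173 for Il21.

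The partner receptor chain and the other JAK kinases that could be tested gave no call. Crlf2, which pairs with IL-7 receptor alpha in the receptor for TSLP, had a log2 difference of -0.28 (limma adjusted p = 0.354). Tyk2, a JAK family kinase of other cytokine receptors, had 31.4 and 15.3 in IL15ko cells against 34.5, 38.3 and 55.1 in wild-type cells (log2 difference -0.93, limma adjusted p = 0.186), and Jak2 had a log2 difference of 0.06.

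Of the 7 STAT genes tested, 1 fell and none rose, against 3.58% lower and 3.75% higher over all genes; a single call on so short a list says little of the list. Stat4, the STAT of IL-12 signalling, gave 14.3 and 27.9 in IL15ko cells against 98.3, 89.9 and 102 in wild-type cells, 4.84-fold lower (limma adjusted p = 0.0204). Leaving out wild-type replicate 1 or 2 ended the Stat4 call, with adjusted p of up to 0.0891. Stat5a, Stat5b and Stat6, which the gamma-chain receptors use and which are named for that reason after their values were seen, had log2 differences of 0.31, 0.17 and 0.02 and did not pass. The sign of the Stat6 difference turned under 7 of 18 other settings.

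Among 13 inhibitors and phosphatases tested, 2 fell and none rose, with 3.58% lower and 3.75% higher over all genes. Both are feedback inhibitors that STAT5 is known to induce. Cish gave 15.2 and 19.3 in IL15ko cells against 122, 111 and 85.4 in wild-type cells, 6.13-fold lower (limma adjusted p = 0.00882). Socs2 gave 2.11 and 2.62 in IL15ko cells, well above background on 1 of the 2, against 19.0, 15.7 and 21.0 in wild-type cells, 7.82-fold lower (limma adjusted p = 0.00592). The Socs2 log2 difference was -2.97 as reported, -1.22 with normexp (adjusted p = 0.211) and -2.30 in the authors' deposited table. For each gene the IL15ko arrays lay far below all wild-type arrays. Without wild-type replicate 1 the adjusted p was 0.0604 for Cish and 0.0537 for Socs2.

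Of 12 genes known as targets of STAT5 or STAT6, 3 fell and none rose, where 3.58% of all genes fell and 3.75% rose. Gzmb, a cytotoxic granule protease, gave 5.53 and 13.2 in IL15ko cells against 380, 395 and 376 in wild-type cells, 44.8-fold lower (limma adjusted p = 0.00642). Its log2 difference of -5.49 was -4.86 without IL15ko replicate 1, -6.11 without IL15ko replicate 2 and -4.52 with normexp (adjusted p = 0.0539). Bcl2, a survival factor, gave 33.2 and 54.6 in IL15ko cells against 191, 201 and 164 in wild-type cells, 4.34-fold lower (limma adjusted p = 0.0173). Ccnd3, a cyclin of the G1 phase, was 1.76-fold lower (limma adjusted p = 0.0469). Gzmb is also a gene of NK cells, whose markers fell as given above. Among 12 adaptors and kinases tested downstream (3.58% of all genes being called lower), Pik3cd, a catalytic subunit of PI3 kinase, was the single gene called, 1.56-fold lower (limma adjusted p = 0.0430). The calls of Ccnd3 and Pik3cd were lost when any array was left out, that of Bcl2 without wild-type replicate 1 or 2 (adjusted p of up to 0.0853) and that of Gzmb without wild-type replicate 1 (adjusted p = 0.0537).

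Of 10 transcription factors known to act at genes of the receptor group, 1 fell and 1 rose, against 7.32% called in either direction over all genes. Tbx21 encodes T-bet, a T-box factor that acts at Il2rb, and gave 165 and 206 in IL15ko cells against 647, 623 and 611 in wild-type cells, 3.40-fold lower (limma adjusted p = 0.00882). Foxo1, a factor known at Il7r, gave 155 and 182 in IL15ko cells against 106, 98.7 and 107 in wild-type cells, 1.62-fold higher (limma adjusted p = 0.0477). For Tbx21 and Foxo1 the groups lay clearly apart. The Foxo1 call was lost when any array was left out (adjusted p of 0.0682 to 0.188), and that of Tbx21 without wild-type replicate 1 or 2 (adjusted p of up to 0.0656).

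**Figure D4:**
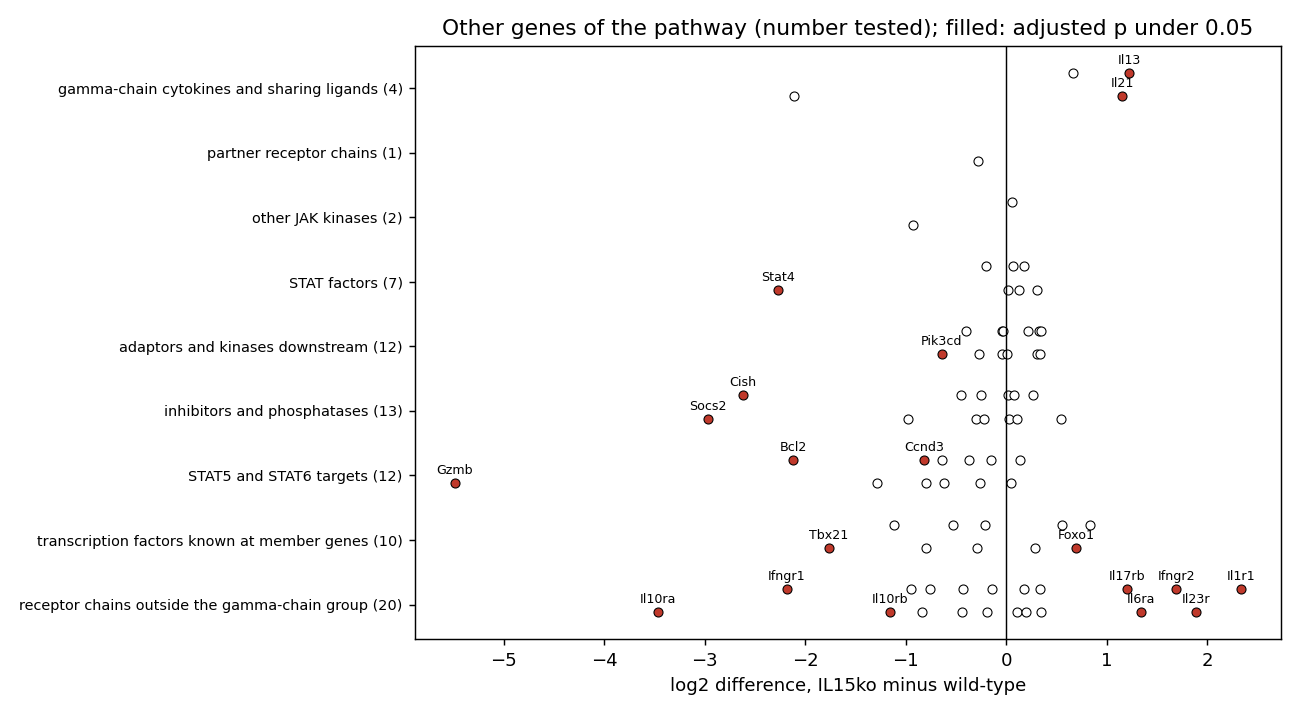
Log2 difference, IL15ko minus wild-type, of the 81 tested genes on 9 lists around the gamma-chain receptors, with the number tested in brackets and filled, named circles at an adjusted p under 0.05. Filled circles lie left of 0 in the STAT, adaptor, inhibitor and target lists, right of 0 among the cytokines, and on both sides among the transcription factors and the other receptors.

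Receptor chains outside the gamma-chain group moved in both directions: of 20 tested, 5 rose and 3 fell, beside 3.75% higher and 3.58% lower over all genes. Il10ra, the ligand-binding chain for IL-10, gave 4.18 and 5.92 in IL15ko cells against 51.1, 57.2 and 56.7 in wild-type cells, 11-fold lower (limma adjusted p = 0.00559), its log2 difference of -3.46 becoming -2.37 with normexp (adjusted p = 0.0800). Its partner Il10rb was 2.23-fold lower and Ifngr1, the ligand-binding chain for interferon gamma, 4.55-fold lower. Il1r1, the receptor for IL-1, gave 38.1 and 45.3 in IL15ko cells against 9.50, 8.43 and 6.94 in wild-type cells, 5.05-fold higher (limma adjusted p = 0.00872). Il23r was 3.71-fold, Ifngr2 3.23-fold, Il6ra 2.53-fold and Il17rb 2.30-fold higher. The subunits for interferon gamma thus differed in direction, Ifngr1 being lower and Ifngr2 higher, while those for IL-10 were both lower. Without wild-type replicate 1 all 8 calls were lost (adjusted p of 0.0521 for Il10ra and 0.0564 for Il1r1), those of Il10rb, Ifngr1, Ifngr2, Il6ra and Il17rb also without wild-type replicate 2, those of Il10rb, Ifngr2 and Il17rb without IL15ko replicate 1, those of Il10rb and Ifngr2 without IL15ko replicate 2, and that of Il17rb without wild-type replicate 3.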

How the data were processed

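Total RNA of NKT cells sorted from pooled thymi was hybridised to 1-colour arrays, 2 IL15ko and 3 wild-type samples. Per the file headers, the authors deposited Agilent Feature Extraction 10.7.1.1 output with processed intensity per spot, already background-corrected. A table of intensity values on a linear scale, not log2, was also deposited by the authors; its values follow the spot median minus background, and its normalization is not given in the sources used here (column medians of 24.356 and 15.746 in IL15ko and 25.182, 22.561 and 26.027 in wild-type samples). The submitters' processing notes also name limma.

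Here control spots and outlier flags were left out, no probe was saturated, spots of a probe were averaged as log2 intensity, and each array's 75th percentile (taken over 18529 probes that passed background on every array) was subtracted from the deposited values. Accessions were matched to RefSeq symbols for 26425 of 55681 probes, and 29256 stayed unnamed. A gene was its brightest probe, tested where well above background on at least 2 arrays. limma 3.58.1 in R 4.3.3 (lmFit, eBayes, two-sided, Benjamini-Hochberg over all genes or all probes, threshold 0.05) compared IL15ko with wild-type; confidence intervals are at 95%. The script was tested on simulated data. The number of arrays limits the precision.

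The genes and lists were chosen with earlier results of these data known. All 10 genes were named, then up to 4 called genes of a list by smallest p, otherwise its smallest p, and any gene needed for a count of 5 or fewer. For the 3 genes with the largest differences, the 3 most alike genes were named. Alternatives varied the scaling, background correction, filter, probe choice, prior, replicate block and arrays left out. The planned normexp on mean signals used median signals instead, the column present in the files used. A search of the proteins was not run, and the values of 3 further marker lists are not reported here. Coordinates are given only for the promoter windows, on GRCm38.p6, and not for probes, as the array's design header names mm9.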

Additional observations from a re-analysis of the deposited data

How the results depend on the processing

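The number of receptor and kinase genes called lower, 2 as reported, was 0 with normexp and an offset of 50, with no filter on dim probes, with the replicate block and with wild-type replicates 1 and 2 averaged, was 0 to 0 when any array was left out, and was 1 with unnamed probes included. At an unadjusted p under 0.05, 2 to 4 were lower and 0 to 2 higher across these settings. Over all genes, such a p was found for 3296 of 12000 as reported. The fewest were 1960 of 11999 with normexp and the most 5042 of 22903 with unnamed probes included. Il4ra was called at 9 and Il21r at 7 of 18 settings. The number called higher was 1, against 0 as reported, with the filter for probes well above background on all arrays and with a trended robust prior. Of the probes, 0 instead of 1 were lower with quantile normalization, normexp, no filter, the authors' deposited table, the replicate block, the averaged wild-type replicates and any array left out (0 to 0), and 3 with the stricter filter and the robust prior, which also gave 1 higher. Over all genes, 879 calls became 1 with normexp, 3 with no filter, 1514 with the robust prior, 380 with the block, 96 with averaging and 9 to 784 with an array left out, 9 being without wild-type replicate 1. Normexp moved the median log2 difference of all genes to 0.22, so differences there are relative to that shift. With no filter the median was 0.24 over a larger set of genes, while each gene tested in both fits kept its log2 difference.

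Outside normexp, signs turned only for genes and probes whose log2 differences as reported were near 0. With normexp they turned for larger differences too, given here with those as reported in brackets. Il2 was 0.22 (-2.11), Rnase6 0.18 (-1.70), Tmem178b 0.017 (-1.55) and Ntng1 0.36 (-1.405). The dimmer Il15ra probe was 0.0025 (-1.155) and the dimmer Il4ra probe 0.26 (-0.67). Il2ra was 0.34 (-0.08) and Stat6 -0.0023 (0.02). With the mean of a gene's probes, Stat6 was -0.21. In the authors' deposited table Il2ra was 0.045 and Stat6 -0.016, and with the averaged wild-type replicates 0.043 and -0.031. With the replicate block Il7r was 0.015 and Gtf3c1 -0.017. These equal the values without wild-type replicate 3, which has no IL15ko array of its number and so adds nothing to the block's difference. With an array left out the ranges were -0.33 to 0.078 for Il2ra, -0.16 to 0.038 for Il7r, -0.25 to 0.16 for Jak1, -0.063 to 0.29 for the second Jak3 probe, -0.11 to 0.15 for Stat6, -0.15 to 0.20 for Gtf3c1, -0.038 to 0.16 for Jak2 and -0.14 to 0.032 for Cd3e. The cause was not tested for any of these. The labels share replicate numbers, and same-numbered arrays correlated at -0.13 and 0.21 in their deviations from the group means. With 2 IL15ko arrays these deviations mirror each other, so the correlations cannot decide whether samples were paired. Signal over background limits Il15, Il2 and the dimmer probes. The brighter Il4ra probe, though well above background on all 5 arrays, was also dim. Its processed intensities were 46.03 and 22.09 in IL15ko cells against 145, 94.47 and 279.8 in wild-type cells. With normexp its log2 difference was -0.58 (-1.59 as reported).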

Other observations

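Genes whose pattern over the 5 arrays was nearest to 3 of the receptor genes are given as a description. Nearness was the root mean square difference of centred log2 values among 11991 genes. The arrays share scaling and, by the first field of the barcode, a slide. Nearest to Il4ra were Tm6sf1 (0.0757), Gpr174 (0.0839) and Zcchc18 (0.0930). Gpr174 gave 9.76 and 13.4 in IL15ko cells against 37.1, 33.5 and 38.4 in wild-type cells. Nearest to Il21r were B4galt5 (0.0314), Dhrs7 (0.0350) and Id2 (0.0476), a repressor of E proteins in lymphocytes. Id2 gave 664 and 737 in IL15ko cells against 1252, 1144 and 1251 in wild-type cells, so it too was lower on both IL15ko arrays. Nearest to Il2rb were Rnase6 (0.113), Tmem178b (0.138) and Ntng1 (0.147), which were well above background on 3, 3 and 2 of the 5 arrays.

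Zbtb16, the transcription factor PLZF of the NKT lineage, gave 803 and 975 in IL15ko cells against 334, 331 and 276 in wild-type cells, 2.83-fold higher (limma adjusted p = 0.0161). Leaving out wild-type replicate 1 or 2 or IL15ko replicate 2 ended that call (adjusted p of up to 0.0826).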
